A study of Homo sapiens with 4 samples.

Results

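UNG, SMUG1, TDG and MBD4 encode the glycosylases that take uracil or mismatched thymine out of DNA, and DUT encodes dUTPase, the enzyme that keeps dUTP out of the nucleotide pool. These 5 genes were taken by symbol from the deposited expression matrix, which holds 33538 rows with plain gene symbols, called all-gene rows here, 1253 rows for a targeted pan-cancer panel and 549 rows for DNA repair. All 5 genes had an all-gene row and 0 of 5 had a panel row, so their values come from the all-gene rows alone. The sources used here do not say how the all-gene rows were sequenced. They were read beside the repair rows of the hairpins named Uracil1, Uracil2, Uracil3 and GU, which together are 244 of the 549 repair rows.

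The cells are MDA MB 134VI (MM134), an established line from a lobular breast carcinoma, labelled WT. The estradiol group received 100 nM estradiol for 24 h and the vehicle group 0.01% ethanol for 24 h, both after culture without hormone in charcoal-stripped serum. The labels give 1 mRNA and 1 repair library for each treatment, so nothing could be tested between treatments. Cells of a library are not replicates, and no p-value is given. In the repair assay, DNA hairpins that carry a lesion meet the enzymes of each cell, and the position at which a strand ends reports whether the lesion was processed.

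The estradiol library held 3367 cells with 5937422 all-gene counts of unique molecular identifiers (UMIs) and the vehicle library 4940 cells with 6918198, with medians of 1561 and 1199 UMIs per cell. The repair rows summed to 4479977 UMIs with estradiol and 4738500 with vehicle, and 4 cell barcodes occurred in both libraries. By the deposited phases, S cells were 29.0% of estradiol cells and 15.6% of vehicle cells, and G1 cells were 34.5% and 50.5%. All 7 luminal markers were detected, with summed levels of 7870 with estradiol and 6413 with vehicle in UMIs per 1000000 UMIs of the library (CPM), and the 5 basal markers were at 0 in both. CDH1, whose loss marks lobular carcinoma, was at 10.3 and 10.1 CPM; of the mesenchymal markers COL1A2 and DCN were at 0 while VIM was at 119 and 158 CPM, and the 6 immune or endothelial markers summed to at most 1 UMI per library. Intervals below are exact 95% intervals, Poisson for CPM, Clopper-Pearson for ratios and binomial for shares. They cover counting error only, treat each UMI as independent and leave out the variation between cultures.

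Uracil enters DNA by incorporation of dUTP during replication and by deamination of cytosine, which leaves uracil opposite guanine. UNG is the main activity against incorporated uracil and acts at replication forks in its nuclear form, while a mitochondrial form starts from a separate promoter; SMUG1 also removes uracil and 5-hydroxymethyluracil. TDG and MBD4 act on thymine or uracil opposite guanine, TDG also on oxidised 5-methylcytosine during demethylation and MBD4 at methylated CpG sites. DUT hydrolyses dUTP to dUMP, the substrate from which thymidylate is made. The abasic site that a glycosylase leaves is cut by APEX1 and filled by POLB with ligases.

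UNG lies on chromosome 12 (GRCh38.p14, chr12:109097597-109110992), as do TDG (chr12:103965872-103988874) and SMUG1 (chr12:54158235-54188985), while MBD4 lies at chr3:129430947-129439948 and DUT at chr15:48331095-48343373, by RefSeq. RefSeq promoter windows of 250 bases before a start were at hand for UNG, TDG, MBD4 and DUT. The windows of UNG and DUT are shown because these 2 genes followed the cell cycle together, as described below. They were searched on both strands for TTTGGCGC, TTTCCCGC, TTTGCCGC and TTTCGCGC, letters of the kind bound by E2F factors, which drive genes of DNA synthesis. Matches stand in capitals, on the strand of the gene, and a match read on the other strand appears as its reverse complement. The UNG window chr12:109097922-109098171 (plus strand) belongs to the second of its starts and the DUT window chr15:48331947-48332196 (plus strand) to the fourth. Of the windows of these 2 genes only those with a match are printed. Which form of UNG each of its starts serves was not determined.
UNG: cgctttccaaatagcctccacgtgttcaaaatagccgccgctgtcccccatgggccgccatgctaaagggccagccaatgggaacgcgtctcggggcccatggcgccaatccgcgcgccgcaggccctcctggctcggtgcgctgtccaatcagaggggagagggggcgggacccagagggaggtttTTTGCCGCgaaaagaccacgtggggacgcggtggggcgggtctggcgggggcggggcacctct
DUT: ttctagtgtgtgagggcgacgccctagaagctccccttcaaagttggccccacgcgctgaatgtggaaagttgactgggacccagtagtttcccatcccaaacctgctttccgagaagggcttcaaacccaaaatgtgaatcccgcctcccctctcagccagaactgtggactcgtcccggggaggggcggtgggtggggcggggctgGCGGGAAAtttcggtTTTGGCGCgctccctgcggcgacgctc
The UNG match lies 63 bases before its start, and the DUT matches lie 42 and 27 bases before theirs. The other windows of UNG and DUT and those of TDG and MBD4 held none of these letters. Of all 35116 windows, 979 (2.79%) held at least 1 match, and of 27305 genes 928 (3.40%) did. A match describes the letters of a window and shows no binding.

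DUT was the most abundant of the 5 transcripts, followed by TDG, MBD4, UNG and SMUG1 in both libraries. A UMI was taken to mark 1 captured transcript end, so levels of different genes are set side by side without scaling by length. DUT was at 298 CPM with estradiol (285 to 312) and 221 CPM with vehicle (210 to 232), from 1771 and 1529 UMIs. TDG was at 112 CPM with estradiol and 107 CPM with vehicle, and MBD4 at 69.7 and 66.8 CPM. UNG was at 40.4 CPM with estradiol (35.5 to 45.9) and 27.3 CPM with vehicle (23.6 to 31.5), from only 240 and 189 UMIs. SMUG1 was at 24.1 CPM with estradiol and 24.6 CPM with vehicle. Neighbours in this order differed beyond counting error except UNG and SMUG1 in the vehicle library, where UNG stood at 1.11 times SMUG1 (0.899 to 1.38).

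The genes were thinly sampled cell by cell. UNG had at least 1 UMI in 6.71% of estradiol cells and 3.77% of vehicle cells, with at most 3 UMIs in an estradiol cell, and DUT in 35.9% and 23.4%. After each cell was thinned to 800 UMIs, which left out 139 estradiol cells and 951 vehicle cells, UNG was detected in 3.19% of estradiol cells (2.61 to 3.86) and 2.28% of vehicle cells (1.84 to 2.79), and DUT in 20.7% (19.3 to 22.2) and 16.6% (15.5 to 17.8). The thinned shares of TDG were 8.33% and 7.60%, those of MBD4 5.27% and 5.06% and those of SMUG1 1.86% and 1.78%. Thinning brought the libraries closer for all 5 genes. No cell type that lacks these genes is present in a single cell line, so the share that free RNA gives was not measured.

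UNG and DUT were higher in the estradiol library, and TDG, MBD4 and SMUG1 stood near a ratio of 1. UNG was 1.48-fold higher with estradiol (1.22 to 1.8) and DUT 1.35-fold higher (1.26 to 1.45). TDG was at 1.05 (0.941 to 1.16), MBD4 at 1.04 (0.912 to 1.19) and SMUG1 at 0.980 (0.779 to 1.23). By the call used here, a ratio of at least 1.5-fold, 0 of 5 genes were higher and 0 of 5 lower, beside 3.82% higher and 6.67% lower among 10977 genes with at least 50 UMIs. The median log2 ratio of all those genes was -0.03. Among genes with at least 200 UMIs the shares were 2.63% higher and 3.67% lower, and with equal weight to each phase 3.48% and 6.16%, and again 0 of the 5 genes passed either way. With a median-of-ratios size factor UNG came to 1.52 and so passed the call, as the only gene of the 5, beside 4.73% of genes higher and 5.92% lower. Fewer cells of a phase and less RNA per cell cannot be told apart in such sums over a library.

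Within phases the ratios of UNG and DUT were uneven, near 1 among S cells and above 1 among G1 cells. Among S cells UNG was at 85.2 CPM with estradiol and 79.1 CPM with vehicle, a ratio of 1.08 (0.817 to 1.43), and among G2M cells at 16.6 and 16.5 CPM, a ratio of 1.01 (0.642 to 1.57). Among G1 cells UNG was at 31.2 CPM with estradiol and 19.3 CPM with vehicle, a ratio of 1.62 (1.10 to 2.37) that rests on 58 UMIs in each library. It was the only gene of the 5 at or over 1.5-fold there, beside 6.0% of the 8756 genes tested among G1 cells, and 0 of 5 were lower, beside 7.53%. DUT was at 513 and 514 CPM in S cells, a ratio of 0.999 (0.896 to 1.11). It was at 168 and 139 CPM in G1 cells, a ratio of 1.21 (1.04 to 1.41), and at 250 and 198 CPM in G2M cells, a ratio of 1.26 (1.12 to 1.42). None of the 5 genes passed the call among S cells, beside 4.72% of genes higher and 5.32% lower, or among G2M cells, beside 3.84% and 6.77%. With equal weight to each phase UNG came to 1.16 and DUT to 1.09. Whether UNG was used to call the deposited phases is not stated, as described below. The ratios within phases and with equal weight were not computed again with phases called without UNG.

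**Figure D1:**
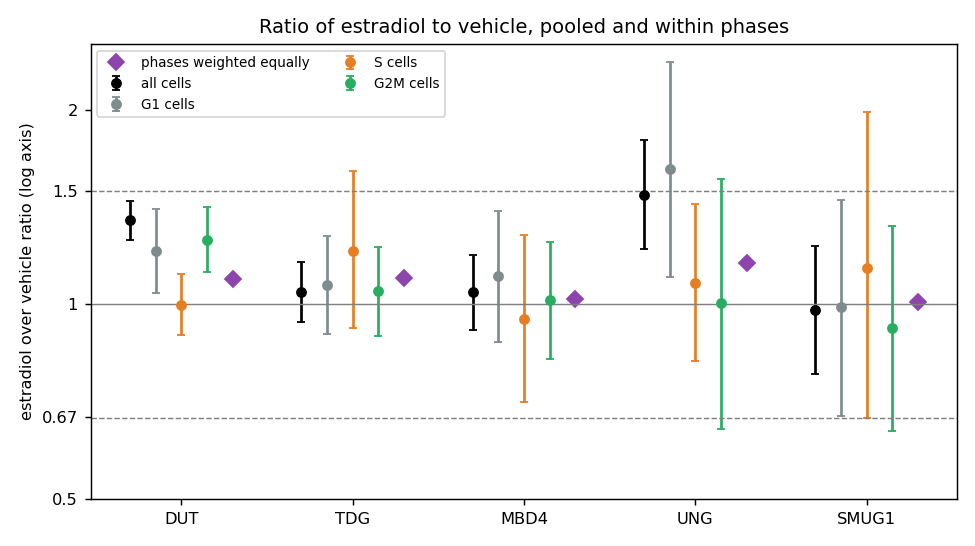
Estradiol over vehicle ratio of each gene on a log axis, for all cells and within each phase with exact 95% intervals, and with phases weighted equally (diamonds, no interval); the dashed lines mark 1.5-fold in either direction. UNG and DUT lie above 1 over all cells, and at 1.08 and 0.999 among S cells.

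The G1 cells of the libraries also sit in different deposited clusters. Outside cluster 1, the cluster with most S cells, the G1 ratio of UNG was 1.37 (0.864 to 2.16) and that of DUT 1.14 (0.956 to 1.37), so both intervals then included 1. Inside cluster 1, DUT in G1 cells was at 291 CPM with estradiol and 479 CPM with vehicle, a ratio of 0.608 (0.452 to 0.823). TDG, MBD4 and SMUG1 had ratios with intervals that included 1 in all 3 phases.

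In contrasts with S cells UNG and DUT differed by larger factors than between treatments. By the deposited phases UNG and DUT were highest in S cells, TDG was lowest there, and MBD4 and SMUG1 showed intervals that included 1 in every contrast of S or G2M with G1. UNG in S over G1 cells was 2.73-fold with estradiol (2.0 to 3.77) and 4.09-fold with vehicle (2.90 to 5.82). DUT was 3.05-fold higher in S with estradiol (2.68 to 3.49) and 3.70-fold higher with vehicle (3.25 to 4.21). These 2 of the 5 genes were at least 1.5-fold higher in S in each library, beside 8.88% of 7734 genes with estradiol and 9.88% of 8263 genes with vehicle. UNG is in the gene list commonly used to call S phase, and the sources used here do not say whether the deposited phases used it. Phases were therefore called again. Of the 5 genes UNG alone is in those lists, and the calls gave the deposited phase in 80.4% of cells without it and in 80.5% with it, so about as many calls differed with UNG kept. Without it UNG in S over G1 was 3.24-fold with estradiol and 3.29-fold with vehicle, and DUT 3.70-fold and 3.77-fold. SMUG1 then stood at 1.76 in S over G1 (0.954 to 3.5) and 1.61 in G2M over G1 (0.884 to 3.17) with estradiol, past 1.5-fold but with intervals that included 1, and at 1.11 and 1.02 with vehicle. MBD4 kept intervals that included 1 in these calls too.

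After S phase UNG and DUT parted. UNG in G2M over G1 cells was at 0.530 with estradiol (0.345 to 0.807) and 0.853 with vehicle (0.568 to 1.28), while DUT stayed above its G1 level, 1.49-fold with estradiol (1.30 to 1.71) and 1.43-fold with vehicle (1.26 to 1.63). Among all genes tested 8.49% of genes with estradiol and 9.55% with vehicle were at least 1.5-fold higher in G2M, and 6.32% and 6.49% lower. With the phases called again, UNG in G2M over G1 was at 0.993 with estradiol (0.588 to 1.75), and at 1.13 (0.621 to 2.21) with UNG kept in the lists, so its low G2M value there depended on how phases were called. S over G2M was 5.15-fold for UNG with estradiol (3.60 to 7.51) and 4.80-fold with vehicle (3.32 to 7.01).

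TDG moved the other way. It was at 91.2 CPM in S cells against 117 CPM in G1 cells of the estradiol library, a ratio of 0.780 (0.630 to 0.965), and at 75.3 CPM against 109 CPM in the vehicle library, a ratio of 0.692 (0.535 to 0.886). With the phases called again without UNG the ratio was 0.801 with estradiol (0.630 to 1.02), where the interval included 1, and 0.737 with vehicle (0.591 to 0.918). Its G2M level was 123 CPM with estradiol and 118 CPM with vehicle. No gene of the 5 fell to 1.5-fold lower in S, beside 5.30% of genes with estradiol and 8.28% with vehicle. As background, TDG protein is removed by ubiquitylation during S phase in human cells; protein was not measured here. MBD4 in S over G1 was at 1.03 with estradiol and 1.20 with vehicle, and SMUG1 at 0.993 and 0.867.

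**Figure D2:**
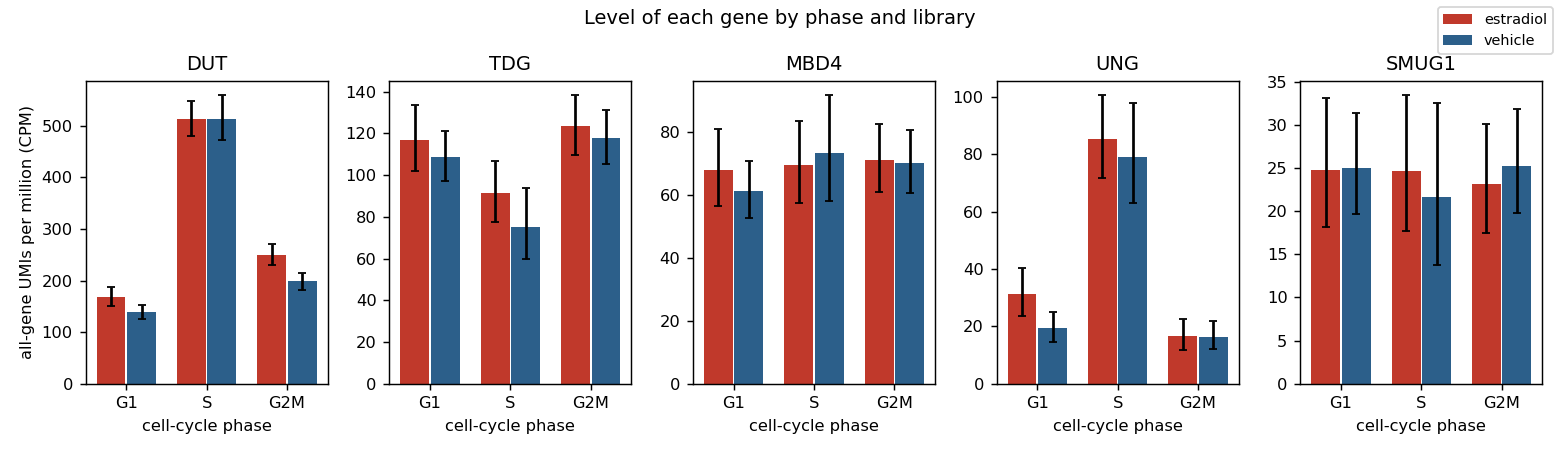
Level of each gene in CPM of all-gene UMIs by deposited phase, with estradiol in red left of vehicle in blue and exact 95% Poisson intervals; each panel has its own axis from 0. By these phases UNG and DUT peak in S in both libraries, TDG is lowest in S, and the intervals of MBD4 and SMUG1 overlap; with phases called again SMUG1 with estradiol stood at 1.76 in S over G1.

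Across the 8 deposited clusters UNG was highest in cluster 1, at 79.3 CPM with estradiol (63.8 to 97.3) and 85.3 CPM with vehicle (64.9 to 110), and lowest in cluster 4, which holds G2M cells only, at 8.40 CPM (2.73 to 19.6) and 9.02 CPM (4.12 to 17.1). Cluster 3 had the deepest cells, with medians of 2769.5 UMIs with estradiol and 2785 with vehicle. MBD4 was higher with estradiol there, at 77.7 CPM with estradiol and 57.0 CPM with vehicle, a ratio of 1.36 (1.02 to 1.84). UNG in cluster 3 was at 54.4 CPM with estradiol and 28.9 CPM with vehicle, a ratio of 1.88 (1.27 to 2.85); among S cells of that cluster it was at 101 and 51.6 CPM, a ratio of 1.96 (1.07 to 3.88). Cluster 3 was the only cluster in which the UNG interval excluded 1. It held 103 of the 240 UNG UMIs with estradiol and 35 of the 189 with vehicle. Without it the ratio over all other cells was 1.26, against 1.48 over all cells. That ratio is given without an interval and is not called beyond counting error. DUT was likewise highest in cluster 1, at 468 CPM with estradiol and 556 CPM with vehicle, and the remaining clusters other than 0, 1 and 3 held between 89.8 and 141 CPM.

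TDG and MBD4 varied less between clusters than UNG and DUT. TDG ranged between 98.4 and 142 CPM with estradiol, lowest in cluster 1, and between 82.6 and 127 CPM with vehicle, lowest in cluster 3. MBD4 ranged between 48.1 and 79.0 CPM with estradiol and between 38.1 and 84.5 CPM with vehicle. SMUG1 had at most 40 UMIs in any cluster of a library and 0 UMIs in the 82 estradiol cells of cluster 2, so its order over clusters was not detectable at this depth.

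Genes with the most similar pattern were sought over the 16 groups of cluster and library, by Pearson correlation of log2(CPM + 10) among 7478 genes with at least 200 UMIs; the groups share libraries and depth, and the values are descriptions. For UNG they were MSH6 (r = 0.93), MCM5 (0.90) and CDCA7 (0.88), and for DUT they were CDC45 (0.97), CLSPN (0.97) and PCNA (0.96). MSH6 is a mismatch repair protein, MCM5 a subunit of the replicative helicase, CDC45 a helicase cofactor, CLSPN the fork mediator claspin and PCNA the polymerase clamp. TDG was most like TLK2, a kinase of chromatin assembly factors, CALCOCO2 and RNF169, at 0.79, 0.75 and 0.75. MBD4 was most like TP53RK, KRIT1 and LRCH4 (0.80, 0.73 and 0.72). No genes are given for SMUG1, whose order over clusters was not detectable. Among the 5 genes UNG and DUT stood at 0.81, UNG and TDG at -0.74 and DUT and TDG at -0.62.

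Within a phase, no difference in DUT between cells with and without a UNG UMI was detectable. Of 6 strata of library and phase, the ratio of DUT in cells with a UNG UMI over cells with none ran between 0.847 and 1.29, with an interval that included 1 in each. MBD4 behaved likewise, and for TDG 1 of 6 intervals excluded 1, in G1 cells of the vehicle library at 0.356 (0.0965 to 0.921) from 4 TDG UMIs in 58 cells. So few cells hold a UNG UMI that only large differences could have been seen.

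Other genes of the pathway were taken from lists. Of 22 base excision repair genes, all had at least 50 UMIs, and 0 were at least 1.5-fold higher or lower with estradiol. Intervals lay above 1 for 10 and below 1 for 1, beside 16.2% above and 18.4% below over all genes. The list's median log2 ratio was 0.25, beside -0.03 over all genes. With equal weight to each phase its median was 0.15, beside -0.03, and again 0 passed either way. The largest ratios were those of NEIL1, a glycosylase for oxidised bases, at 0.680 (0.468 to 0.978), NTHL1, a glycosylase for oxidised pyrimidines, at 1.47 (1.21 to 1.79), the poly(ADP-ribose) polymerase PARP2 at 1.41 (1.19 to 1.68) and the endonuclease APEX2 at 1.36 (1.07 to 1.72). APEX1, named here for its step after the glycosylases and with its value already seen, was at 183 CPM with estradiol and 172 CPM with vehicle (1.07-fold, 0.982 to 1.16). In S over G1 cells 8 of the 22 genes had intervals above 1 in both libraries, as UNG and DUT did, beside 6.48% of all genes. Whether genes of this list were used to call the deposited phases is not stated, and phases were not called again without them. The list also has 8 genes with rows of the targeted panel, which held far more UMIs per gene. There NTHL1 stood at 1.22 (1.17 to 1.27) and PARP2 at 1.23 (1.19 to 1.27), and the adenine glycosylase MUTYH was at 0.914 (0.848 to 0.984) against 1.20 (0.749 to 1.91) in its all-gene row. Of the 8 panel rows 6 had intervals above 1 and 2 below, beside 26.4% and 50.9% of all panel rows, and their median log2 ratio was 0.29, beside -0.11.

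The thymidylate and deoxynucleotide supply list, the pathway into which DUT feeds, had a median above that of all genes with estradiol. Of 22 genes with at least 50 UMIs, 4 passed the call upwards and 1 downwards, beside 3.82% and 6.67% of all genes, the median log2 ratio was 0.42, and 11 of them had S over G1 intervals above 1 in both libraries, beside 6.48%. Here too, genes of the list may have been used to call the deposited phases. With equal weight to each phase 2 passed upwards and 1 downwards, and the median was 0.14, beside -0.03. NME1, a nucleoside diphosphate kinase, was at 213 CPM with estradiol and 110 CPM with vehicle, 1.93-fold (1.76 to 2.11), and its near-identical neighbour NME2 1.72-fold (1.26 to 2.35), although reads of these paralogs may be split between them. DCTPP1, a dCTP pyrophosphatase, was 1.57-fold higher (1.35 to 1.83). The mitochondrial thymidine kinase TK2 was 0.591-fold (0.461 to 0.755), at 17.0 CPM with estradiol and 28.8 CPM with vehicle. The remaining gene over 1.5-fold, named after its value was seen, was the ribonucleotide reductase subunit RRM2 at 1.52 (1.36 to 1.70).

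Cytosine deaminases, which make uracil in DNA, were at or near 0. Of 10 genes only APOBEC3F reached 50 UMIs, at 3.03 CPM with estradiol and 5.06 CPM with vehicle, a ratio of 0.599 (0.320 to 1.09). Of 14 measured partners in methylation and turnover 2 passed the call upwards and 0 downwards, beside 3.82% and 6.67% of all genes, and their median log2 ratio was -0.02. With equal weight to each phase 0 passed either way. In the 8 panel rows of this list the median was -0.20, beside -0.11 over all panel rows. Of the 8 rows 2 had intervals above 1 and 5 below, beside 26.4% and 50.9% of all panel rows. UHRF1, which binds hemimethylated DNA, was 1.72-fold higher (1.54 to 1.93) and the licensing factor CDT1 1.5-fold higher (1.23 to 1.85). The stress gene GADD45A, a partner of TDG in demethylation, was at 0.680 (0.573 to 0.805) and RPA2, a single-stranded DNA binding subunit that contacts UNG, at 1.26 (1.08 to 1.48). The FAM72 paralogs in this list are near-identical and their counts uncertain.

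Repair of the uracil hairpins was read as the window share, the percent of a hairpin's UMIs that lie at positions 44 to 50, where the main processed end is position 45. Normal, a hairpin without lesion by its name, had 0.102% in that window with estradiol and 0.113% with vehicle. No source used here gives the base opposite each uracil. Uracil1 and Uracil2 shares were close between libraries, at ratios of 1.02 (1.01 to 1.03) and 1.01 (0.995 to 1.02), while Uracil3 was 1.12-fold higher with estradiol (1.08 to 1.17) and GU 1.18-fold higher (1.16 to 1.19). The Abasic hairpin, whose processing needs no glycosylase, was at 0.907 (0.901 to 0.913). With equal weight to each phase Uracil1 came to 0.988, Uracil3 to 1.04 and GU to 1.11, and Uracil1 also lay below 1, at 0.981, when position 45 was counted alone.

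All 4 uracil hairpins had their highest window share in S cells of both libraries, as UNG and DUT had their highest levels. With estradiol, the Uracil1 share was 33.0% in S and 26.6% in G1 cells, a ratio of 1.24 (1.22 to 1.26), and with vehicle 33.9% and 26.7%, a ratio of 1.27 (1.25 to 1.29). S over G1 ratios with estradiol and with vehicle were 1.25 and 1.30 for Uracil2, 1.55 and 1.65 for Uracil3, and 1.46 and 1.54 for GU. The Abasic hairpin stood at 0.965 and 0.982 in the same contrast and riboG, a hairpin named for a ribonucleotide, at 0.996 and 1.08. In G2M over G1 cells Uracil1 was at 0.959 with estradiol and 0.958 with vehicle, Uracil2 at 0.945 and 0.95, while GU was at 1.11 and 1.18.

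**Figure D3:**
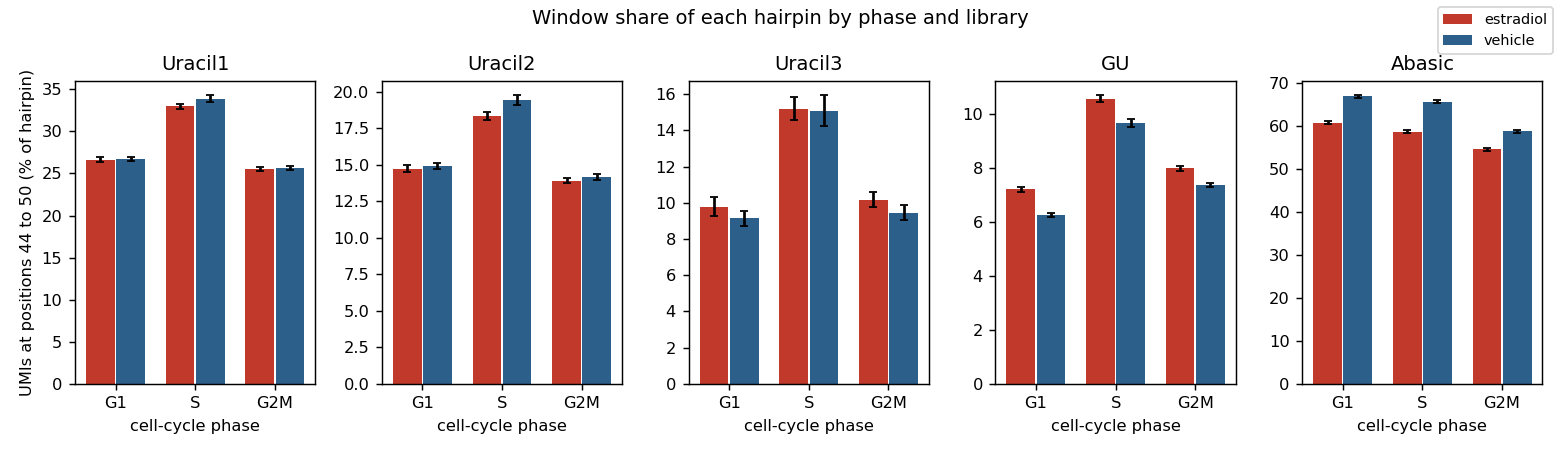
Percent of each hairpin's UMIs at positions 44 to 50 by deposited phase, with estradiol in red left of vehicle in blue and exact 95% binomial intervals; each panel has its own axis from 0. The 4 uracil hairpins peak in S in both libraries, and Abasic does not.

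Of the 4 uracil hairpins only GU had an estradiol over vehicle interval above 1 in all 3 phases, at 1.15 (1.13 to 1.17) in G1, 1.09 (1.07 to 1.11) in S and 1.08 (1.07 to 1.10) in G2M cells. Uracil3 was at 1.07 in G1, 1.01 in S and 1.08 in G2M cells, and its interval excluded 1 in G2M cells alone. Uracil1 was at 0.997, 0.972 and 0.998 and Uracil2 at 0.989, 0.945 and 0.983 in the same phases. Among S cells both intervals lay below 1, 0.956 to 0.989 for Uracil1 and 0.922 to 0.969 for Uracil2. In G1 and G2M cells the intervals of both included 1. GU also moved with cell depth. In G1 cells of the estradiol library the GU share was 9.63% in the deepest of 5 equal bins of cells, against 5.48% in the shallowest bin, while Abasic was at 46.2% against 68.8%. Estradiol cells were deeper than vehicle cells in every phase, with medians of 1309 and 978 UMIs in G1, and the part of depth in the GU difference was not tested.

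Over the 16 groups of cluster and library, UNG level and window share gave Pearson's r of 0.73 for Uracil1, 0.71 for Uracil2, 0.74 for Uracil3 and 0.62 for GU, against 0.02 for Abasic and -0.09 for riboG. DUT gave 0.72, 0.69, 0.79 and 0.73 for the 4 uracil hairpins, TDG between -0.47 and -0.59 and MBD4 between 0.06 and 0.26. Spearman's rho for UNG and Uracil1 was 0.79 and was not computed again without cluster 1. That cluster has UNG at 79.3 CPM with estradiol and 85.3 CPM with vehicle. Over the other 14 groups Pearson's r of UNG fell to 0.44 with Uracil1, 0.59 with Uracil2 and 0.66 with Uracil3. With GU it rose to 0.72, and it was -0.49 with Abasic and 0.26 with riboG. Over the same groups DUT gave 0.43, 0.48, 0.69 and 0.80 with the 4 uracil hairpins. With Abasic DUT gave -0.57 and with riboG 0.49. The values near 0 for Abasic and riboG thus also rest on cluster 1. These are 16 groups from 2 libraries that share depth and clustering, so the values describe them and no p is given. No gene outside the set studied here was compared with the window shares. Whether the genes most like UNG or DUT over these groups, or other genes high in S cells, give similar values was not tested. Cluster 3 stands apart, with UNG at 54.4 and 28.9 CPM, a Uracil1 share of 26.8% and 25.8% and an Abasic share of 45.4% and 45.9%, estradiol first.

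**Figure D4:**
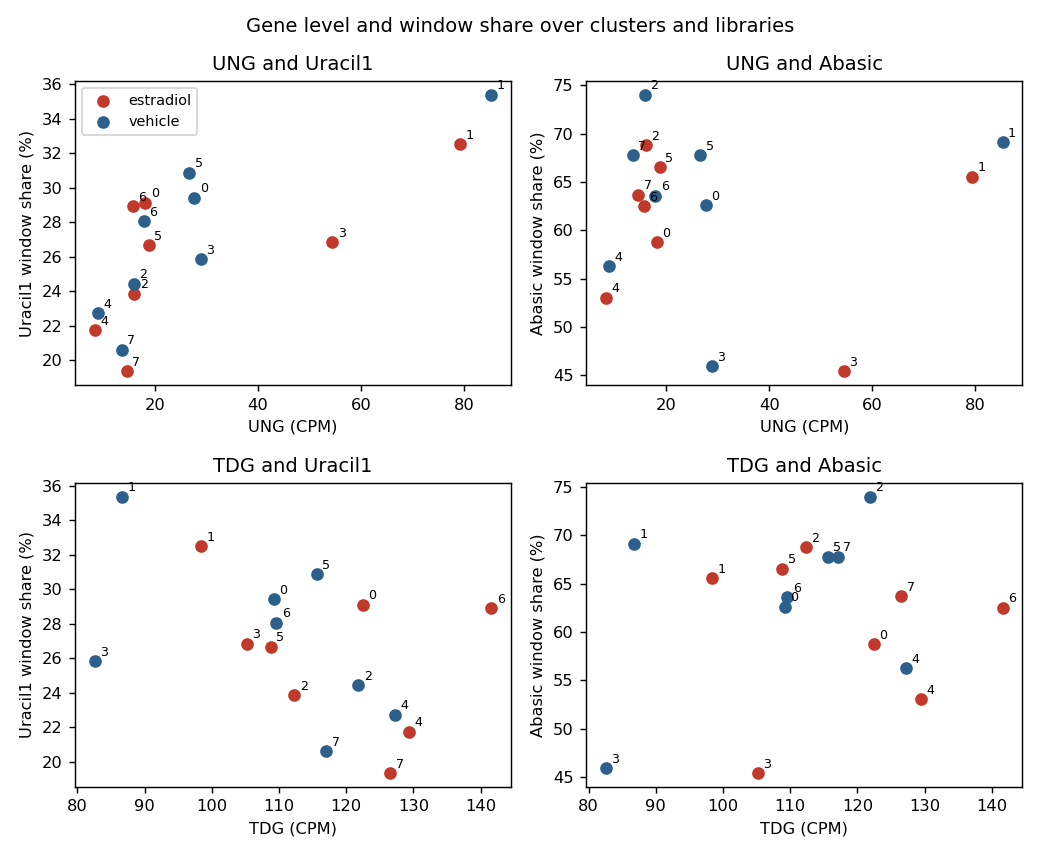
UNG (top) and TDG (bottom) level in CPM against the window share in percent of Uracil1 (left) and Abasic (right), 1 point per deposited cluster and library, numbered by cluster, estradiol in red and vehicle in blue. Cluster 1 holds the highest UNG levels and Uracil1 shares in both libraries, and cluster 3 the lowest Abasic shares.

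Cells with a UMI of UNG or of DUT had higher uracil window shares than cells with none. With estradiol the GU share was 10.1% in 226 cells with a UNG UMI, against 8.36% in the other 3141, a ratio of 1.21 (1.18 to 1.24), and with vehicle 9.20% against 7.13%, a ratio of 1.29 (1.25 to 1.33). For Uracil3 the UNG ratio was 1.34 with estradiol (1.22 to 1.47) and 1.40 in the vehicle library (1.23 to 1.58), and for Uracil1 it was 1.06 and 1.12. For DUT the GU ratios were 1.26 (1.24 to 1.27) and 1.36 (1.34 to 1.38). Over 4 hairpins and 2 libraries the share was higher in cells with the UMI in 8 of 8 pairs for UNG and for DUT, in 6 for MBD4, in 4 for SMUG1 and in 2 for TDG. No gene outside this set was read in this way. How many pairs other genes high in S cells would give was therefore not tested.

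A cell with more UMIs is more likely to hold a UMI of any gene, and estradiol cells with a UNG UMI had a median of 1996.5 UMIs, against 1541 for those without. The cells without a UMI were therefore weighted to the phase and depth of the cells with one, in 5 bins of depth within library and phase, a comparison added after seeing the data. Over both libraries and all phases together UNG and DUT remained at 8 of 8 pairs, with a smaller ratio in each. In single strata of library and phase, which were not matched for depth, UNG was less even. Its Uracil1 ratio was above 1 in 4 of 6 strata, at 0.974 in S cells and 0.935 (0.881 to 0.991) in G2M cells with estradiol. Its GU ratio was above 1 in 6 of 6 strata, also without matching for depth. For UNG the matched GU ratios were 1.04 with estradiol and 1.07 with vehicle and the Uracil3 ratios 1.15 and 1.18; for DUT they were 1.11 and 1.15 for GU and 1.16 and 1.16 for Uracil3. The matched Abasic ratios were 0.980 and 0.994 for UNG, and 0.963 and 1.00 for DUT. Hairpins without uracil were not all near 1. For DUT the matched Normal ratio was 1.02 with estradiol and 1.18 with vehicle, above its matched uracil ratios there. The unmatched Normal ratio of DUT with vehicle was 1.27 (1.08 to 1.48). Matched riboG ratios, estradiol first, were 1.08 and 1.03 for MBD4 and 0.935 and 1.12 for SMUG1. TDG then had 1 of 8 matched pairs above 1, with Uracil1 at 0.946 with estradiol and 0.952 with vehicle. Not matched for depth, its Uracil1 ratio was below 1 in all 6 strata of library and phase, each with an interval that excluded 1. For MBD4, 7 of 8 matched pairs were above 1, with GU at 1.09 and 1.02, and for SMUG1 4 of 8. These ratios carry no interval over cells, so whether the genes differ from each other was not tested. Matched ratios were not computed for other genes high in S cells either.

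**Figure D5:**
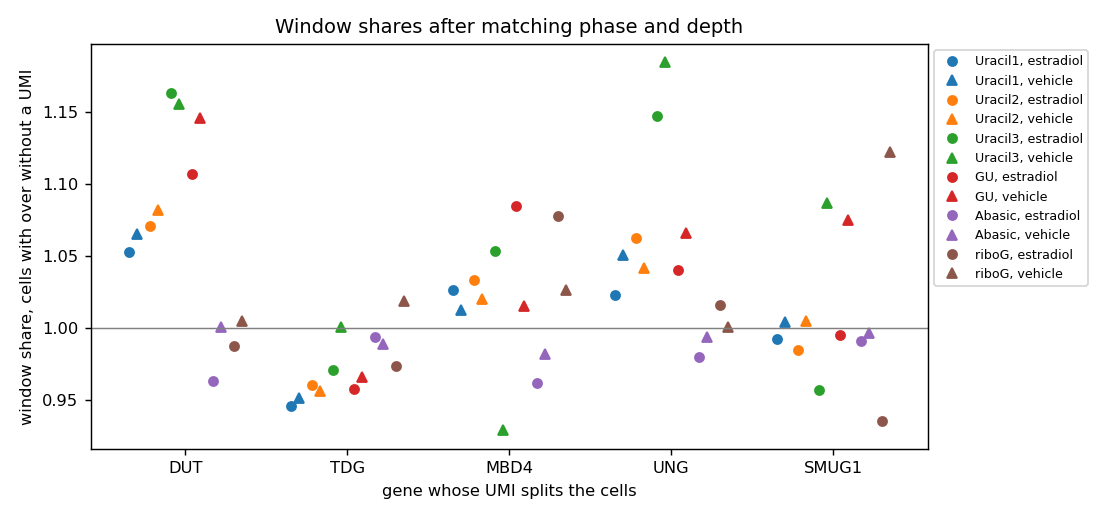
Ratio of the window share in cells with a UMI of each gene over cells with none, weighted to the same phase and depth, for 6 hairpins with estradiol (circles) and vehicle (triangles). Uracil hairpins lie above 1 for DUT and UNG and mostly below 1 for TDG, while Abasic lies near 1 or just below it. For MBD4 riboG lies above 1, and for SMUG1 it lies below 1 with estradiol and above 1 with vehicle.

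Counts of these genes have a limit of their own. RefSeq lists pseudogenes of UNG, SMUG1, TDG and DUT, and antisense or overlapping transcripts of SMUG1 and DUT. None of these has a row in the matrix, and whether any of their reads were counted to the genes was not examined. The nuclear and mitochondrial forms of UNG and of DUT share 1 row each.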

How the data were processed

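Per the file headers, the matrix was deposited as natural log values and the annotation gives treatment, cluster, phase and UMI counts per cell. Dividing each cell's UMI count by its total, scaling by 10000, adding 1 and taking the natural log gives these values; inverted, 100% of them were whole within 1e-06, and these counts, the unit the design had assumed, were analysed. Per the submitters' processing notes the tools include UMI-tools 0.5.3, Bowtie2 2.3.2, cutadapt 1.8.3, Cell Ranger 3.0.2 and SAMtools, and the build is hg38; no source says which step used which or how phases and clusters were made, and 8 deposited score columns and the deposited percent of mitochondrial UMIs per cell were not used. Every deposited cell was kept; doublets were not called, and the comparison was repeated without the deepest 5% of cells.

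UMIs were summed per library, phase or cluster and divided by that group's total (Python 3.11.15, numpy 2.4.6, scipy 1.17.1, pandas 2.3.3; phases called again with scanpy 1.11.5). Ratios needed at least 50 UMIs, and a call at least 1.5-fold. A count of 0 allows 0.505 CPM with estradiol and 0.434 CPM with vehicle (3 UMIs of the library). Genes named were the 5 members, up to 4 per list by size of ratio and the 3 most alike per member other than SMUG1. The scripts were tested on simulated data. The members and lists were chosen with earlier results of these data known.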

Additional observations from a re-analysis of the deposited data

Results flagged for a closer look

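The DUT ratio of estradiol to vehicle pointed in opposite directions in 2 deposited clusters, and in each the interval excluded 1. It was 0.841 (0.736 to 0.961) in cluster 1, with 468 CPM with estradiol and 556 CPM with vehicle, and 1.29 (1.11 to 1.49) in cluster 3, with 305 CPM and 237 CPM. The difference between the clusters was not tested, since each treatment has 1 library. Within cluster 1 the ratio was 0.608 among G1 cells and 0.958 among S cells, and within cluster 3 it was 1.52 (1.14 to 2.02) among G2M cells and 1.02 among S cells. S cells made up 60.3% of estradiol cells and 69.8% of vehicle cells in cluster 1, and 34.2% and 22.1% in cluster 3. With the vehicle phases weighted to the estradiol phases, a comparison added after seeing the data, the ratio was 0.856 in cluster 1 and 1.10 in cluster 3.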

How the results depend on the processing

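Of 40 estradiol over vehicle ratios of the 5 genes under other scalings, cells and weights, 38 stayed within the interval first given. With equal weight to each phase UNG moved to 1.16 and DUT to 1.09. Of 80 phase ratios 66 stayed within their intervals, and the others all came from calling the phases again. Without the 5 genes they were, in the estradiol library UNG in G2M over G1 at 0.993, SMUG1 at 1.76 in S over G1 and 1.61 in G2M over G1, and DUT at 3.70 and 2.13; in the vehicle library DUT in G2M over G1 at 1.89. With UNG kept in the lists UNG came to 4.93 in S over G1 and 1.13 in G2M over G1 with estradiol, the second now above 1, and to 1.29 in G2M over G1 with vehicle; in S and then G2M over G1 with estradiol SMUG1 came to 1.58 and 1.55 and DUT to 3.49 and 2.01, and DUT in G2M over G1 with vehicle to 1.92. Without thinning, the shares of cells with a UMI in the estradiol and then the vehicle library were 6.71% and 3.77% for UNG, 4.13% and 3.26% for SMUG1, 17.3% and 13.6% for TDG, 11% and 8.77% for MBD4, and 35.9% and 23.4% for DUT.

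The window share ratio of Uracil1 turned below 1 at position 45 alone (0.981) and with equal phase weights (0.988), and was 1.04 over all repair UMIs. In the same order Uracil2 moved to 0.984, 0.970 and 1.06. Over all repair UMIs and with equal phase weights Uracil3 moved to 1.18 and 1.04 and GU to 1.13 and 1.11, and Uracil3 to 1.05 as a mean over cells. For cells with over without a UMI, UNG turned below 1 for Uracil1 in S (0.974) and G2M cells (0.935) with estradiol and for Uracil2 in G1 cells with vehicle (0.998). With vehicle TDG turned to 1.00 for Uracil2 in G1 cells and to 0.970 for GU in G2M cells, and to 0.966 for GU when matched for phase and depth. MBD4 turned below 1 for Uracil2 in S cells, at 0.959 with estradiol and 0.986 with vehicle. The pairs above 1 for TDG were 4 among G1 cells, 0 among G2M cells, 1 among cells of at least 800 UMIs and 1 when matched, and those for MBD4 3 among S cells. The base excision repair list had 1 gene at least 1.5-fold higher with a median-of-ratios size factor (its main count was 0), and the deaminase list 0 lower at 200 UMIs. With equal phase weights the deoxynucleotide list had 2 higher, the methylation list 0 higher and the deaminase list 0 lower. Where no reason shows in the setting itself, the cause was not tested.

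The panel-row alternatives could not be run, since 0 of the 5 genes have a panel row. No paired analysis was possible because each treatment has 1 library of each kind and the labels carry no replicate numbers. Intervals cover counting error only, and UNG and SMUG1 rest on at most 240 UMIs per library. Matching for depth, leaving out cluster 1 or 3, keeping UNG in the phase lists and weighting lists or clusters by phase were chosen after seeing the data.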
